A study of Mus musculus with 16 samples.

Results

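Gene expression in the glial lamina of nerves from microbead-injected eyes was compared with that of untouched young nerves, on the 4 microbead and the 4 young naïve libraries of a series of 16. The members were chosen by group label alone, and all 4 libraries of each group entered. Both groups were wild-type C57BL/6 mice of 13 weeks. The microbead group was examined 4 weeks after polystyrene microbeads were injected into the right anterior chamber, and the young naïve group was not injected. Another group of the same age, given saline in the same place 4 weeks before, also has 4 libraries, whose values are set beside some of the genes named here. The last group, naïve mice of 40 weeks, is given only where its libraries resembled the microbead libraries. Each library pooled the unmyelinated optic nerve heads of 4 right eyes, from male and female mice in equal number, so that the spread between libraries is that between pools and no value belongs to 1 mouse.

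The glial lamina is the stretch of the optic nerve just behind the eye in which the axons of retinal ganglion cells have no myelin and are bundled by the processes of astrocytes. Microbeads block the drainage of fluid from the eye and raise intraocular pressure (IOP), which loads the lamina mechanically and over weeks injures the axons that pass through it. Astrocytes of this region respond by thickening their processes, extending new ones along the nerve and taking up axonal debris. Fibroblasts of the pia, vessel cells, microglia and oligodendrocytes at the edge of the dissected piece add their own RNA.

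Total counts of the 8 libraries ranged from 7321554 to 10726122, and Pearson r of log2 expression between libraries of 1 group lay between 0.968 and 0.987. The defining astrocyte marker Gfap stood at 6665 to 9695 CPM (counts scaled to a common library total with the TMM factors of the 8 libraries) in microbead and 5182 to 6398 CPM in young naïve libraries. No gene's level is set by the injection itself, so the microbead label could not be checked in the counts. RNA of other tissue differed widely between libraries of the same group. The summed level of photoreceptor and other retinal cell RNAs ranged from 271 to 901.6 CPM in microbead libraries and from 279 to 3147 CPM in young naïve libraries, with microbead library 4 and young naïve library 2 the highest of their groups. Whole libraries also stood apart in 2 further measures. Counts assigned to Lars2, the mitochondrial leucyl-tRNA synthetase, were 5940, 4543, 4878 and 4137 CPM in microbead libraries 1 to 4, against 209.6, 196, 128 and 165 CPM in young naïve libraries 1 to 4. Saline libraries 1 to 3 had 129.6, 89.6 and 107 CPM of Lars2 and saline library 4 had 5480 CPM, while the aged naïve libraries had 8489, 669.6, 9065 and 9200 CPM. Levels relative to the young naïve mean also rose with gene length, with a Spearman correlation across 14048 genes of 0.414, 0.453, 0.436 and 0.472 in microbead libraries 1 to 4, against 0.272, 0.142, -0.395 and 0.0152 in young naïve libraries 1 to 4, each of which was left out of its own mean. Saline libraries 1 to 3 had a correlation of -0.179, -0.208 and -0.174, saline library 4 had 0.482, and aged libraries 1 to 4 had 0.375, -0.243, 0.453 and 0.388. Genes are not independent replicates, and these values share the young naïve baseline. All 4 microbead libraries stood with saline library 4 and aged libraries 1, 3 and 4 in both measures, and the part of either measure in the gene changes given here was not tested. The labels also carry a library code, 4 for microbead libraries 1 and 2, 5 for microbead libraries 3 and 4, and 3 for every young naïve library, so that code and injection cannot be told apart within these 8 libraries. All saline libraries had code 4 and aged libraries 1 to 3 had code 3. Nerves of the microbead and saline groups were handled side by side, as the study's methods state, and the methods name no such arrangement for the naïve nerves.

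Of 23337 genes in the count table, 18574 had a count in the 8 libraries and 14048 had enough counts to be tested. A gene was called when it differed at least 1.5-fold in the quasi-likelihood test of edgeR, with an unadjusted p under 0.01 and, after Benjamini-Hochberg adjustment over all genes tested, under 0.05. Log2 fold changes are given as microbead over young naïve, with ± for their standard error, and a plain number in brackets after a gene is its log2 fold change. By that rule 1416 genes were called, 10.1% of those tested, of which 1108 were higher after microbead injection (7.89%) and 308 lower (2.19%). Without the fold minimum 4136 genes passed (29.4%). The split leaned toward higher genes, which were 78.2% of the calls, although the median log2 fold change over all genes tested was 0.0048. With library totals in place of TMM factors the split was 1392 higher and 166 lower (89.3% higher), and with upper quartile scaling it was 936 higher and 427 lower. In 4623 genes (32.9%) the CPM of the groups did not overlap, 2525 with microbead libraries higher (18.0%) and 2098 with them lower (14.9%). In a tissue piece of mixed cells, fewer cells of a type and less RNA per cell cannot be told apart.

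**Figure D1:**
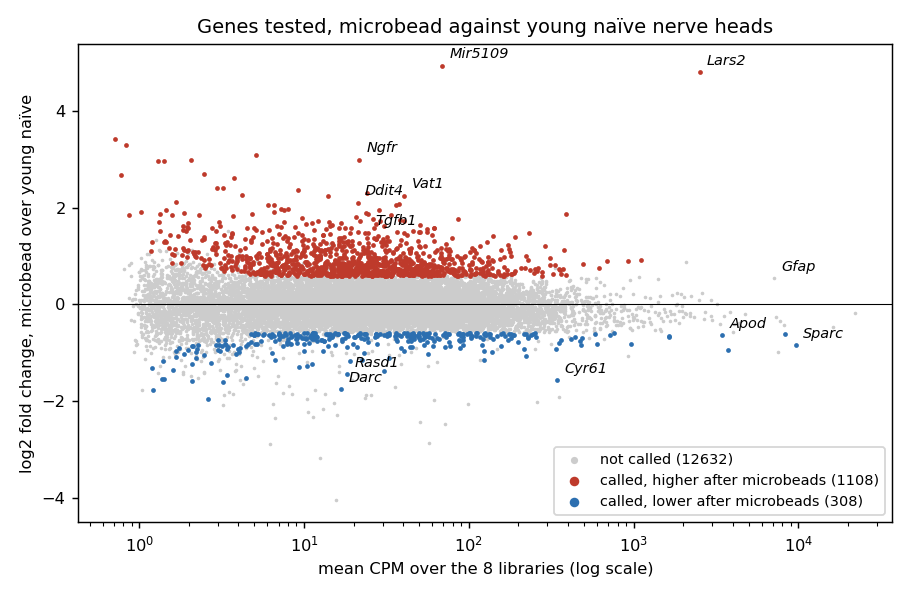
Mean CPM over the 8 libraries (horizontal, log scale) against the log2 fold change of microbead over young naïve libraries (vertical) for the 14048 genes tested, each a point, with called genes in color. The 1108 called higher genes reach from the 1.5-fold minimum to the log2 fold changes of 4.93 for Mir5109 and 4.80 for Lars2, far above the other abundant genes, and the 308 lower ones stay above -2.

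The largest changes among well counted genes were increases. Lars2 lies on chromosome 9 of mm10 from 123366940 to 123462664, plus strand, and its values are those given above (edgeR log2 fold change 4.80 ± 0.184, adjusted p = 7.55e-08). Counts of the microRNA gene Mir5109 were 160.1, 138, 125 and 109.6 CPM in microbead libraries, against 5.86, 4.92, 3.35 and 3.21 CPM in young naïve libraries (edgeR log2 fold change 4.93 ± 0.186, adjusted p = 2.88e-08). Both genes stood at high levels in saline library 4 as well, at 5480 and 144 CPM. Whether these counts are RNA of the annotated genes or of a repeated sequence within them was not tested. Rn45s, which carries the 45S ribosomal RNA, moved the same way with non-overlapping groups but was not called, at 3384, 2164, 2719 and 2493 CPM in microbead and 1951, 1848, 756 and 1323 CPM in young naïve libraries (edgeR log2 fold change 0.87 ± 0.317, adjusted p = 0.0798).

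Ngfr, which encodes the p75 neurotrophin receptor of injured neurons and glia (chromosome 11 of mm10 from 95568821 to 95587698, minus strand), was 7.95-fold higher. It had 28.9, 39.1, 34.8 and 51.5 CPM in microbead libraries, against 6.63, 5.82, 3.58 and 3.33 CPM in young naïve libraries (edgeR log2 fold change 2.99 ± 0.246, adjusted p = 1.43e-05). Every microbead library was several times above the highest young naïve one. Vat1, a membrane protein of synaptic vesicles and mitochondria, had 66.4, 61.8, 69.4 and 70.7 CPM after microbeads, against 15.2, 16.3, 12.5 and 12.2 CPM in young naïve libraries (edgeR log2 fold change 2.25 ± 0.105, adjusted p = 1.89e-08). Ddit4, the stress-induced inhibitor of the growth kinase mTORC1, had 30.9, 38.9, 35.9 and 31.6 CPM, against 9.39, 7.83, 7.604 and 7.02 CPM in young naïve libraries (edgeR log2 fold change 2.10 ± 0.126, adjusted p = 5.27e-08). Mmp15, a membrane-bound matrix metalloprotease, had 49.3, 63.3, 49.5 and 70.9 CPM, against 14.03, 12.1, 16.2 and 13.6 CPM in young naïve libraries (edgeR log2 fold change 2.06 ± 0.136, adjusted p = 2.05e-07). In each of these genes the groups did not overlap, which the rule that named them required. The others among the 12 largest increases were Gpr162, an orphan receptor (log2 fold change 2.36), Ppp1r37, a regulatory subunit of protein phosphatase 1 (2.3), Clip2, a linker of microtubules (2.24), Epn1, the endocytic adaptor epsin (2.07), Hebp1, a heme-binding protein (2.05), and Bai1, the phosphatidylserine receptor now called Adgrb1 (2.05).

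In all 12 of these genes saline libraries 1 to 3 lay below every microbead library, and in 6 of them (Gpr162, Ppp1r37, Vat1, Epn1, Mmp15 and Hebp1) they also all lay above every young naïve library. Saline library 4 lay above every young naïve library in the same 12 genes and reached the microbead range in 11 of them. For Ngfr, saline libraries 1 to 3 had 4.88, 6.77 and 5.25 CPM and saline library 4 had 46.8 CPM, and for Vat1 they had 19.8, 18.6 and 17.1 and 75.6 CPM. The saline values thus split inside 1 group along the same line as its Lars2 counts. In the exception, Ddit4, saline library 4 had 27.2 CPM, between both groups, and saline libraries 2 and 3 were under the young naïve range with 3.09 and 2.88 CPM.

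The decreases were smaller. Darc, now called Ackr1, the chemokine-binding receptor of venular endothelium (chromosome 1 of mm10 from 173331886 to 173333503, minus strand), was 3.35-fold lower, with 9.47, 8.55, 6.76 and 6.35 CPM in microbead libraries, against 46.97, 17.01, 21.5 and 18.3 CPM in young naïve libraries (edgeR log2 fold change -1.75 ± 0.373, adjusted p = 0.00972). Young naïve library 1 was far above its group, yet the lowest young naïve value was still above every microbead value. Rasd1, a Ras-like protein induced by dexamethasone, had 8.56, 11.5, 8.15 and 10.8 CPM, against 28.8, 30.8, 20.2 and 27 CPM in young naïve libraries (edgeR log2 fold change -1.45 ± 0.154, adjusted p = 1.01e-05). Ch25h, which makes 25-hydroxycholesterol, had 14.3, 10.6, 10.8 and 10.8 CPM, against 26.5, 31.2, 23.5 and 23.9 CPM in young naïve libraries (edgeR log2 fold change -1.18 ± 0.134, adjusted p = 1.70e-05). Adm, the vasodilator adrenomedullin, had 28.7, 45.8, 30.6 and 43.1 CPM, against 66.8, 69.7, 73.5 and 92.6 CPM in young naïve libraries (edgeR log2 fold change -1.03 ± 0.165, adjusted p = 0.00101). The fold changes of these 4 genes were 2.04 or more, while the closest libraries of the groups lay nearer to each other. The other 8 of the 12 largest decreases were E030010A14Rik (log2 fold change -1.37), 8430408G22Rik, now called Depp1 (-1.30), the Ras-like Rasl11a (-1.27), the clock repressor Nfil3 (-1.24), the neurofilament medium chain Nefm (-1.15), the calmodulin regulator Pcp4 (-1.15), the Paf1 complex subunit Leo1 (-1.10) and D4Wsu53e (-1.06). Darc lost its call with either pair of microbead libraries alone, at a log2 fold change of -1.54 with libraries 1 and 2 and of -1.98 with libraries 3 and 4. Pcp4 lost its call in 15 of 27 alternatives and D4Wsu53e in 12, and in both genes 5 of these left out a single library. Nfil3 lost its call without microbead library 4.

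For the decreases, saline library 4 was below every young naïve library in 11 of these 12 genes, and in 5 of the 12 saline libraries 1 to 3 were also all below every young naïve library. Ch25h had 12.8, 13.2, 17.2 and 7.24 CPM in saline libraries 1 to 4, all under the lowest young naïve value, and E030010A14Rik had 23.7, 28.1, 24 and 25.7 CPM, again all under it. For Rasd1, saline libraries 1 to 3 at 15.6, 23.8 and 18.8 CPM were above every microbead library and saline library 4 at 7.47 CPM was below them all.

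**Figure D2:**
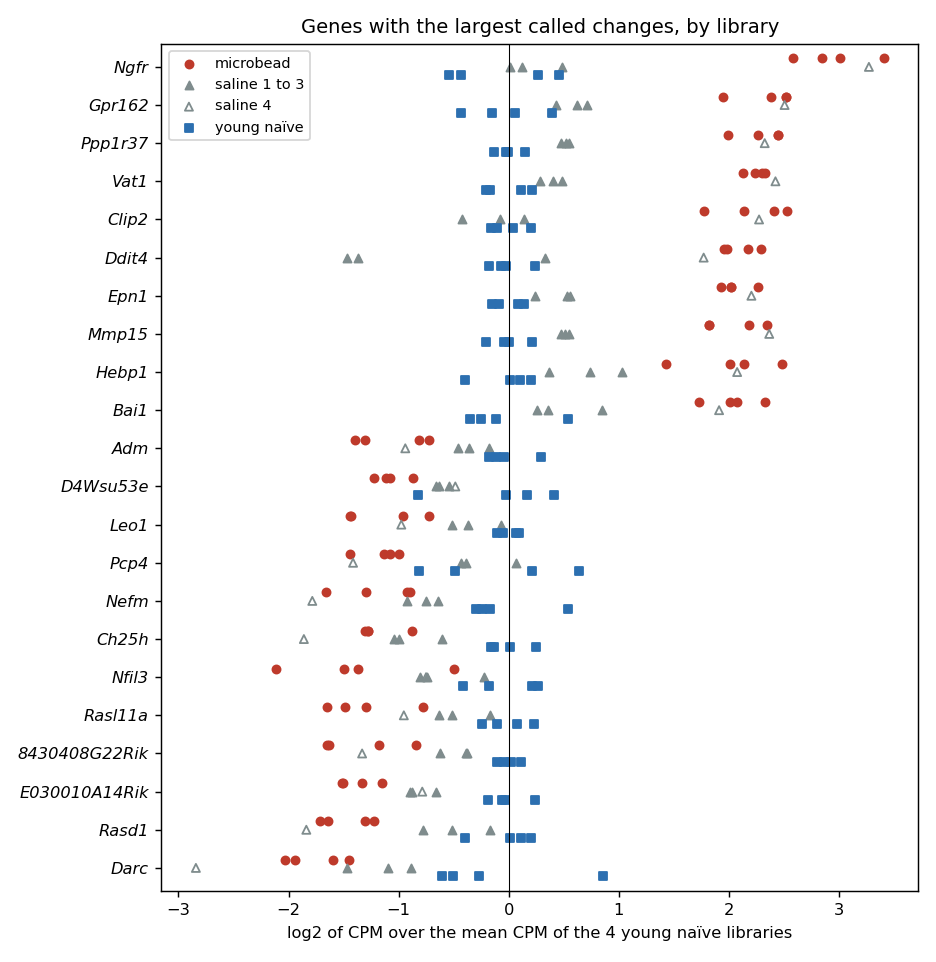
Level of the genes with the largest called changes in each library, as log2 of CPM over the young naïve mean (horizontal), with microbead libraries as circles, saline libraries as triangles (library 4 open) and young naïve libraries as squares. Lars2 and Mir5109 are left out for scale. The open triangle of saline library 4 lies among or near the microbead circles for the higher genes, while the filled triangles lie below every circle.

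The circadian clock runs on the activators Arntl (Bmal1) and Clock, which bind the E-box sequence CACGTG and drive the repressors Per and Cry and the output factors Dbp, Tef and Hlf. Nfil3 opposes those outputs, and Bhlhe40 and Bhlhe41 bind E-boxes as repressors. Among the circadian clock genes, 8 of 16 tested were called higher and 1 lower (50% and 6.25%, against 7.89% and 2.19% of all genes tested), and their median log2 fold change was 0.66. Tef (chromosome 15 of mm10 from 81802673 to 81826863, plus strand) had 167, 128, 197 and 157 CPM in microbead libraries, against 54.04, 71.1, 72.2 and 83.96 CPM in young naïve libraries (edgeR log2 fold change 1.21 ± 0.154, adjusted p = 3.22e-04). Per1 had 26.9, 16.8, 28.4 and 21.4 CPM, against 9.72, 12.9, 12.9 and 11.5 CPM in young naïve libraries (edgeR log2 fold change 0.99 ± 0.164, adjusted p = 4.25e-04). Nr1d2, the repressor Rev-erb beta, had 106, 83.97, 122 and 106 CPM, against 45.8, 53.3, 52.3 and 66.8 CPM in young naïve libraries (edgeR log2 fold change 0.94 ± 0.128, adjusted p = 1.81e-04). The groups of all 3 genes were apart without overlap. Hlf was also higher (log2 fold change 0.73), as were Per2 (1.03), Per3 (0.84), Bhlhe40 (0.59, with overlapping groups) and Bhlhe41 (1.07), of which the last 4 are named after their values were seen. Nfil3 was lower, with 3.63, 11.2, 5.57 and 6.07 CPM, against 13.9, 18.2, 18.9 and 11.8 CPM in young naïve libraries (edgeR log2 fold change -1.24 ± 0.2999, adjusted p = 0.0109).

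Arntl itself was not called and overlapped between the groups. It had 17.1, 44.4, 12.9 and 23.9 CPM in microbead libraries, against 58.7, 54.8, 51.7 and 39.2 CPM in young naïve libraries (edgeR log2 fold change -1.05 ± 0.389, adjusted p = 0.0842). Dbp, the output factor with the widest daily swing in many tissues, had 427, 221, 549 and 474 CPM, against 180.0, 235, 279 and 299.6 CPM in young naïve libraries, and was not called either (edgeR log2 fold change 0.75 ± 0.307, adjusted p = 0.111). In both genes microbead library 2 lay inside the young naïve range and the other 3 microbead libraries lay outside it. Microbead library 2 was the nearest of the 4 to the young naïve mean in 12 of the 16 clock genes, against 0, 2 and 2 for libraries 1, 3 and 4. Without it 10 circadian clock genes were called higher and 2 lower, and over the other single libraries left out the counts were 7 to 9 higher and 0 or 1 lower. With gene length trends removed, 5 were higher and 1 lower. With library code as a term in 14 libraries 0 were called.

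The saline libraries divided the circadian clock genes. For Dbp saline libraries 1 to 4 had 389, 403, 529 and 359.7 CPM, each above the highest young naïve value, and for Bhlhe40 they had 300.0, 342, 348 and 258 CPM. Arntl had 32.3, 34.2, 29.6 and 31.9 CPM in saline libraries 1 to 4, all below the lowest young naïve value. Per1 instead had 8.17, 9.66 and 9.75 CPM in saline libraries 1 to 3, at or under the lower end of the young naïve values, and 28.01 CPM in saline library 4.

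E-box sites upstream of the called clock genes are shown because the activators of the clock bind this sequence. The letters CACGTG, a palindrome that reads the same on both strands, were searched in the 250 bases before each annotated start (RefSeq, GRCm38.p6). They were found in 6.02% of all 32851 such windows and for 9.80% of the tested genes with a window. Of the 9 called clock genes 7 had a window, and 3 of these 7 held the letters. Over all clock genes tested it was 4 of the 14 with a window, the fourth being Cry1, which was not called. Tef held them at both of its starts. The stretches are given 5′ to 3′ on the strand of the gene, with the letters in capitals and 30 bases on either side.
Per1 (chr11:69098753-69098818, plus strand, 166 bases before the start): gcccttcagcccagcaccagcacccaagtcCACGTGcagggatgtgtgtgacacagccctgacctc
Tef (chr15:81802516-81802581, plus strand, 127 bases before the start): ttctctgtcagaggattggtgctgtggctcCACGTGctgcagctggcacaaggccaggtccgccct
Tef (chr15:81811246-81811311, plus strand, 138 bases before the start): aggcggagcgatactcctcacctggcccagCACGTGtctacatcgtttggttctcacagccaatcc
Bhlhe41 (chr6:145865538-145865603, minus strand, 153 bases before the start): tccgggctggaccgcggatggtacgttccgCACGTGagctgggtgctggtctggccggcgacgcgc
The windows of Per3, Nr1d2, Hlf and Nfil3 did not hold these letters, and Per2 and Bhlhe40 had no window here. A match describes the letters only.

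**Figure D3:**
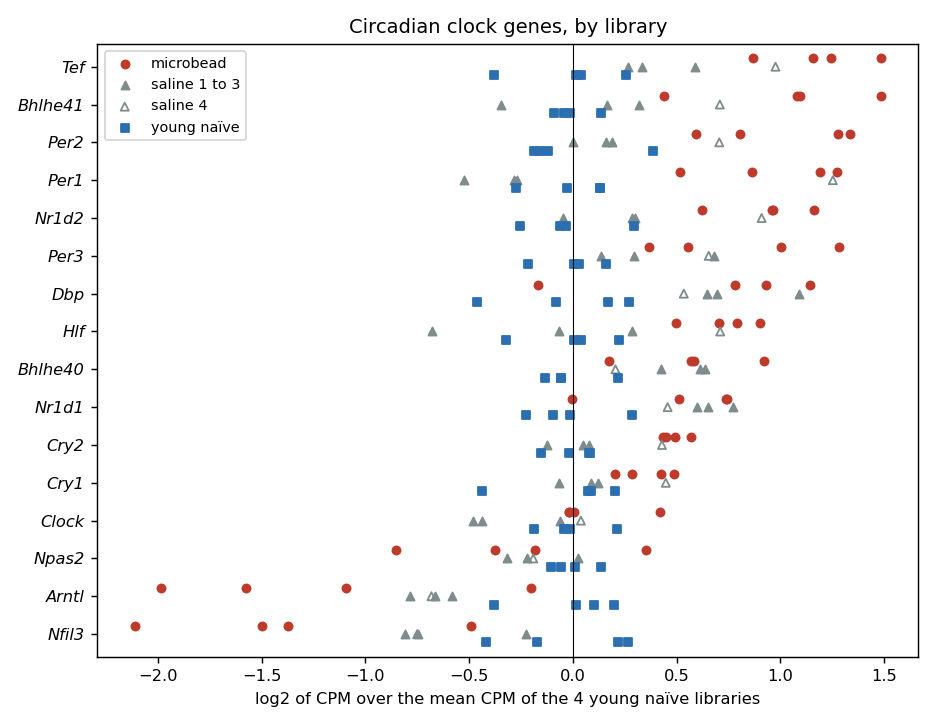
Level of the 16 circadian clock genes in each library, as log2 of CPM over the young naïve mean (horizontal), with microbead libraries as circles, saline libraries as triangles (library 4 open) and young naïve libraries as squares. Tef, at the top, has all 4 microbead circles above every square, and for Arntl and Nfil3, at the bottom, 1 circle lies close to the squares and the other 3 lie well to the left.

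In the lists of axon guidance genes and of actin and small GTPase protrusion genes, the called members were all higher. Semaphorins, netrins, ephrins and slits steer growing processes through plexin, Dcc, Eph and Robo receptors. In axon guidance ligands and receptors 12 of 45 genes tested were higher and 0 lower (26.7%), with a median log2 fold change of 0.29. Over all genes tested 7.89% were called higher. Plxnd1, a semaphorin receptor, had 24.4, 26.7, 24.4 and 23.1 CPM after microbeads, against 11.8, 10.4, 11.3 and 12.4 CPM in young naïve libraries (edgeR log2 fold change 1.10 ± 0.109, adjusted p = 5.30e-06). Plxnb1 had 50.9, 73.4, 69.2 and 69.9 CPM, against 35.03, 33.8, 29.5 and 34.5 CPM in young naïve libraries (edgeR log2 fold change 0.99 ± 0.111, adjusted p = 1.63e-05), and the ligand Sema6b had 21.1, 27.4, 24.1 and 22.7 CPM, against 13.7, 11.9, 12.8 and 11.1 CPM (edgeR log2 fold change 0.95 ± 0.1198, adjusted p = 4.30e-05). The log2 fold changes of these 3 genes were near 1, and their groups did not overlap. The others called, named after their values were seen, were the ligands Sema4c (log2 fold change 1.18), Sema7a (0.76), Efnb2 (0.65), Efnb3 (0.80) and Ntn1 (0.68) and the receptors Plxna3 (0.99), Plxnb2 (0.70), Plxnb3 (0.64) and Ephb2 (0.67). Sema3a, a repellent of axons, was not called, at 13.5 to 19.5 in microbead and 11.2 to 15.2 in young naïve libraries in CPM. Genes of this list are long, with a median of 6022 bases against 2878 bases for all genes tested. With the length trend removed 7 were higher and 1 lower, with the term for library code in 14 libraries 2 were higher, and without microbead library 4 there were 8.

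Among actin and small GTPase protrusion genes 7 of 35 were higher and 0 lower (20%, against 7.89% of all genes tested, median log2 fold change 0.067). Actr2, the Arp2 subunit that nucleates branched actin, had 205, 220.1, 217 and 179 CPM in microbead libraries, against 75.8, 82.8, 73.5 and 76.7 CPM in young naïve libraries (edgeR log2 fold change 1.41 ± 0.0794, adjusted p = 3.18e-08). Vasp, which elongates actin filaments, had 39.7, 49.9, 42.4 and 40.7 CPM, against 15.5, 17.1, 18.1 and 17.2 CPM in young naïve libraries (edgeR log2 fold change 1.35 ± 0.102, adjusted p = 4.94e-07). Rhob, a small GTPase, had 141, 186, 169.9 and 182 CPM, against 86.1, 96.1, 99.9 and 100.1 CPM in young naïve libraries (edgeR log2 fold change 0.83 ± 0.0901, adjusted p = 1.24e-05). The other 4 were the cofilin kinase Limk1 (log2 fold change 0.96), the exchange factors Trio (0.79) and Arhgef2 (0.69) and the Wave subunit Wasf2 (0.75), named after their values were seen. Close partners of these genes, named after their values were seen, were not called. They include the Arp2/3 subunits Arpc1a (-0.20), Arpc1b (-0.38), Arpc2 (0.07) and Arpc3 (-0.17) and the actins Actb (-0.53) and Actg1 (-0.33), and also Rhoa (0.15) and Cdc42 (-0.04). Actb was lower without overlap but under the 1.5-fold minimum. With the length trend removed 4 actin and small GTPase protrusion genes were higher.

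The TGF-beta and BMP pathway, which controls matrix production in the lamina, had 5 of 31 genes higher and 1 lower (16.1% and 3.23%, median log2 fold change 0.18). The shares of all genes tested were 7.89% and 2.19%. Tgfb1, the ligand, was 2.79-fold higher (chromosome 7 of mm10 from 25687002 to 25704996, plus strand), with 35.03, 35.6, 34.5 and 39.7 CPM in microbead libraries, against 11.9, 11.97, 15.4 and 12.5 CPM in young naïve libraries (edgeR log2 fold change 1.48 ± 0.111, adjusted p = 4.25e-07). The inhibitory Smad7 had 43.6, 40.8, 46.8 and 40.8 CPM, against 17.8, 17.7, 17.7 and 18.3 CPM in young naïve libraries (edgeR log2 fold change 1.27 ± 0.0893, adjusted p = 2.46e-07). Both genes were narrow in each group and far apart between them. The co-receptor Eng rose as well (0.97, adjusted p = 9.24e-06 by edgeR), as did Smad3 (0.68) and Ltbp1 (0.62), and the target Id1 fell (-0.61), the last 3 named after their values were seen. Tgfb2, more abundant than Tgfb1 in CPM, stood at 949.8 to 1208 in microbead and 726 to 819.6 in young naïve libraries and missed the 1.5-fold minimum (0.51, adjusted p = 4.22e-04 by edgeR). With the length trend removed 3 genes of the TGF-beta and BMP pathway were higher and 0 lower.

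Yap and Tead are a transcriptional pair that responds to cell stretch. Of the Yap and Tead targets and regulators 4 of 17 were higher and 2 lower (23.5% and 11.8%, against 7.89% and 2.19% of all genes tested). Tead2 had 20.1, 16.2, 20.2 and 19.6 CPM after microbeads, against 6.52, 6.38, 8.39 and 6.898 CPM in young naïve libraries (edgeR log2 fold change 1.43 ± 0.137, adjusted p = 3.92e-06). The cofactor Vgll4 had 52.5, 57.6, 52.2 and 56.6 CPM, against 97.9, 92.2, 86.3 and 120.1 CPM in young naïve libraries (edgeR log2 fold change -0.86 ± 0.09805, adjusted p = 1.87e-05), and its saline values of 67.8, 55.2, 59.1 and 58.6 CPM were all below the young naïve range too. The others called were Tead3, Lats1 and Axl, all higher, with Tead3 and Lats1 named after their values were seen. Of the classical Yap targets Cyr61 (Ccn1) had 150.4, 162, 134 and 247 CPM, against 225, 562, 779.9 and 490.3 CPM in young naïve libraries (edgeR log2 fold change -1.57 ± 0.4104, adjusted p = 0.029), with overlap at microbead library 4 and young naïve library 1. The groups were otherwise apart, and Cyr61 lost its call in 14 of 27 alternatives. Ctgf (Ccn2) was not called, at 856, 691, 692 and 899 CPM in microbead and 805, 1023, 1261 and 1342 CPM in young naïve libraries (edgeR log2 fold change -0.50 ± 0.162, adjusted p = 0.0408). Of 11 mechanosensitive channels tested 1 was higher (9.09%), a share near the 7.89% of all genes tested. It was Pkd1, the polycystin of the primary cilium (0.89, adjusted p = 8.71e-06 by edgeR), and Trpv4 was not called (-0.18, adjusted p = 0.491 by edgeR).

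Among collagens and matrix 2 of 31 genes were higher and 1 lower (6.45% and 3.23%), shares near the 7.89% and 2.19% of all genes tested, and without microbead library 1 or 3 there were 5 higher. Col1a1, the main fibrillar collagen, had 526, 542, 451 and 557 CPM in microbead libraries, against 247, 246, 251 and 205 CPM in young naïve libraries (edgeR log2 fold change 1.13 ± 0.0878, adjusted p = 6.09e-07). Col3a1 had 806, 802, 649 and 841 CPM, against 483, 466, 448 and 444 CPM in young naïve libraries (edgeR log2 fold change 0.75 ± 0.0842, adjusted p = 1.60e-05). Sparc, a secreted matrix glycoprotein and one of the most abundant genes, went the other way with 5052, 5969, 7073 and 9635 CPM, against 11460, 12050, 12250 and 13880 CPM in young naïve libraries (edgeR log2 fold change -0.84 ± 0.177, adjusted p = 0.00537). The increases of both collagens came with no overlap, and saline libraries 1 to 3 lay between the groups with 297, 373 and 394 CPM of Col1a1. Col4a1 (0.16) and Fn1 (-0.01) were not called, and the scar glycoprotein Tnc stood at 78.2 to 113 in microbead and 61.3 to 64.2 in young naïve libraries in CPM, under the 1.5-fold minimum (0.55, adjusted p = 0.00106 by edgeR). Once the length trend was removed 1 gene of collagens and matrix was higher and 2 lower. Mmp15 was the called one of 19 matrix proteases and inhibitors, and the inhibitor Timp1 was not called (-0.21, adjusted p = 0.145 by edgeR). Among the 19 glaucoma-associated genes tested, 3 were higher (15.8%). Loxl1, which cross-links elastic fibres, had 92.5, 90.7, 64.8 and 92.03 CPM, against 43.5, 41.6, 40.3 and 34.01 CPM in young naïve libraries (edgeR log2 fold change 1.09 ± 0.119, adjusted p = 1.71e-05). Gas7 (0.77) and the transcription factor Foxc1 (0.59) were the others, and Foxc1 lay near the 1.5-fold minimum and lost its call in 14 of 27 alternatives. Myoc (log2 fold change 0.69) and Optn (-0.35) were not called, and microbead library 1 had 58.8 CPM of Myoc, against 10.5 to 18.3 CPM in the other microbead libraries.

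Astrocytes clear debris with receptors that recognize phosphatidylserine on dying cells and axons, either directly or through bridging proteins. Of 22 phagocytosis and engulfment genes tested, 4 were higher and 0 lower (18.2%), and in 11 of them the groups did not overlap with microbead libraries higher (50%, against 18.0% of all genes tested). Bai1, which binds phosphatidylserine directly, had 8.43, 10.2, 10.7 and 12.8 CPM after microbeads, against 1.99, 3.69, 2.35 and 2.14 CPM in young naïve libraries (edgeR log2 fold change 2.05 ± 0.219, adjusted p = 1.05e-05). Axl had 422, 495, 424 and 423 CPM, against 273, 244, 291 and 249 CPM in young naïve libraries (edgeR log2 fold change 0.74 ± 0.0814, adjusted p = 1.37e-05), and its relative Tyro3 had 19.98, 23.9, 25.6 and 28.4 CPM, against 16.4, 17.1, 16.1 and 13.7 CPM (edgeR log2 fold change 0.63 ± 0.125, adjusted p = 0.00152). The lipid transporter Abca7 was the fourth (0.84), named after its values were seen. Several engulfment genes were separated between the groups without reaching 1.5-fold. Megf10 had 67.1, 78.03, 78.5 and 79.3 CPM, against 57.9, 56.2, 45.5 and 54.5 CPM in young naïve libraries (edgeR log2 fold change 0.50 ± 0.0915, adjusted p = 8.39e-04). Gulp1, its adaptor, had 57.1, 65.3, 63.3 and 60.4 CPM, against 52.3, 50.8, 51.5 and 51.02 CPM (edgeR log2 fold change 0.26 ± 0.07499, adjusted p = 0.0158), and Abca1 had 109, 128, 109.6 and 98.1 CPM, against 96.6, 83.04, 76.7 and 75.5 CPM (edgeR log2 fold change 0.42 ± 0.0968, adjusted p = 0.00401). The bridging protein Mfge8 was on the other side, with 280.0, 264, 253 and 285 CPM, against 312, 384, 384 and 328 CPM in young naïve libraries (edgeR log2 fold change -0.38 ± 0.0829, adjusted p = 0.00305). Lgals3, galectin-3, overlapped between the groups, with 404, 347, 495 and 479 CPM, against 446, 527, 596 and 578 CPM (edgeR log2 fold change -0.31 ± 0.1202, adjusted p = 0.0632). Tyro3 lost its call without microbead library 4 or young naïve library 4. With the length trend removed 2 phagocytosis and engulfment genes were called higher. Of the 20 mitophagy and autophagy genes tested, the kinase Ulk1 was higher (0.64, adjusted p = 1.25e-04 by edgeR), while Pink1 (0.22) and Park2 (0.06) were not called. In the 36 lysosomal hydrolases and proton pump genes 2 were higher (5.56%, against 7.89% of all genes tested), the pump subunits Atp6v0d1, with 138, 144, 135 and 137 CPM, against 63.3, 68.5, 67.1 and 62.1 CPM (edgeR log2 fold change 1.09 ± 0.0665, adjusted p = 6.51e-08), and Atp6v0a2 (0.61). The other 34 were not called, and the groups of 14 of the 36 did not overlap with microbead libraries lower, against 14.9% of all genes tested. Without microbead library 2 Atp6v0a2 lost its call.

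Few classical markers of astrocyte reactivity were called. Gfap had 6665, 8234, 9021 and 9695 CPM in microbead libraries, against 5749, 5182, 5774 and 6398 CPM in young naïve libraries, a fold change of 1.46 that missed the 1.5-fold minimum (edgeR log2 fold change 0.54 ± 0.1095, adjusted p = 0.00181), and saline libraries 1 to 4 had 6893, 8442, 7672 and 8048 CPM, each above the young naïve range. Of 13 pan-reactive astrocyte genes 0 were higher by edgeR and 1 was lower (7.69%), against 7.89% higher and 2.19% lower of all genes tested. The lower gene was the small heat shock protein Hspb1, with 62.01, 65.7, 62.1 and 72.04 CPM, against 118, 112, 106 and 107 CPM in young naïve libraries (edgeR log2 fold change -0.76 ± 0.0753, adjusted p = 5.69e-06). Serpina3n was lower without reaching the minimum (-0.54, adjusted p = 4.50e-04 by edgeR), and Lcn2 overlapped between the groups, with 7.13, 16.4, 5.76 and 6.63 CPM, against 40.7, 22.7, 16.9 and 14.8 CPM in young naïve libraries (edgeR log2 fold change -1.40 ± 0.475, adjusted p = 0.0631). Of 11 A1 reactivity genes 0 were called by edgeR or DESeq2 (4 at an unadjusted p under 0.05 in edgeR), and H2-T23 (-0.11), Fbln5 (-0.12), Psmb8 (0.04) and Srgn (-0.28) were all within 0.3 of 0 on the log2 scale. Of 10 A2 reactivity genes Emp1 was higher, with 179, 144, 163 and 127 CPM, against 92.3, 102, 85.2 and 84.2 CPM in young naïve libraries (edgeR log2 fold change 0.76 ± 0.102, adjusted p = 9.98e-05), while Ptx3 (-0.15), Clcf1 (-0.31) and Stat3 (0.26) were not called. Of 16 complement genes 0 were called by edgeR or DESeq2 (7 at an unadjusted p under 0.05 in edgeR). Of 25 interferon and antigen presentation genes 0 were called by either tool (2 at an unadjusted p under 0.05 in edgeR). C4b stood at 411 to 572 in microbead and 270.5 to 381 in young naïve libraries in CPM with no overlap (0.48, adjusted p = 0.0109 by edgeR) and C3 overlapped (0.21, adjusted p = 0.426 by edgeR).

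Single receptors for cytokines, adrenaline and chemokines were called higher beside Ngfr. The shares of their lists stand against 7.89% called higher and 2.19% called lower of all genes tested. Of 11 neurotrophin ligands and receptors 2 were higher (18.2%), Ngfr and the sorting receptor Sorcs2 (0.61, adjusted p = 0.00129 by edgeR). The neurotrophin Bdnf was near the limit of detection at 0.596 to 1.297 in microbead and 0.238 to 3.02 in young naïve libraries in CPM and was not called (-0.79, adjusted p = 0.266 by edgeR). Of 5 adrenergic receptors tested 3 were higher (60%). Adrb1, the β1 receptor, had 22.1, 24.7, 17.1 and 20.4 CPM, against 10.7, 10.1, 10.5 and 9.51 CPM in young naïve libraries (edgeR log2 fold change 1.04 ± 0.131, adjusted p = 4.20e-05). Adra1b had 16.6, 25.7, 17.8 and 24.3 CPM, against 12.8, 13.7, 14.4 and 13.8 CPM (edgeR log2 fold change 0.63 ± 0.145, adjusted p = 0.0043). Adra2b rested on few reads, with 12, 11, 15 and 13 counts in microbead libraries 1 to 4, against 0, 4, 2 and 1 in young naïve libraries 1 to 4 (edgeR log2 fold change 2.68 ± 0.547, adjusted p = 0.00187), and DESeq2 gave it no adjusted p. Sorcs2 lost its call without microbead library 4 or young naïve library 3, and Adra1b without microbead library 2 or 4. Of 16 chemokines and receptors tested, 1 was higher and 1 lower (6.25% each). Cxcr4, the receptor of Cxcl12, had 22.96, 23.99, 26.8 and 28.1 CPM, against 7.18, 7.95, 6.82 and 9.75 CPM in young naïve libraries (edgeR log2 fold change 1.69 ± 0.135, adjusted p = 7.70e-07), while Cxcl12 was not called (-0.06, adjusted p = 0.607 by edgeR). The neutrophil chemokine Cxcl1 was lower at few counts, with 0.649, 1.15, 1.39 and 0.934 CPM, against 2.43, 5.59, 2.12 and 2.497 CPM (edgeR log2 fold change -1.59 ± 0.373, adjusted p = 0.00476). Of 16 genes of the interleukin-6 family and Stat3 pathway 2 were higher (12.5%), the receptor Il6ra (0.80, adjusted p = 5.93e-04 by edgeR) and the Stat3 inhibitor Pias3 (0.77, adjusted p = 9.21e-05 by edgeR), and neither Lif (-0.04) nor Socs3 (0.13) was called. Of 13 Erk feedback inhibitors 2 were higher and 1 lower (15.4% and 7.69%). The phosphatase Dusp7 (0.93, adjusted p = 1.77e-06 by edgeR) and Spred3 (1.27, adjusted p = 0.0018 by edgeR) were higher and the phosphatase Dusp2 lower (-0.93, adjusted p = 0.0138 by edgeR), a call that was lost without microbead library 2 or 3 or young naïve library 4. In the endothelin pathway 1 of 7 genes tested was lower (14.3%) and 0 higher. Edn1, which encodes the vasoconstrictor, was the lower one, with 9.6, 6.57, 9.14 and 9.998 CPM, against 16.6, 18.5, 14.99 and 18.9 CPM in young naïve libraries (edgeR log2 fold change -0.96 ± 0.148, adjusted p = 2.24e-04), and its receptor on astrocytes, Ednrb, was not called (0.15, adjusted p = 0.194 by edgeR).

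Of 20 hypoxia and mTOR genes 5 were higher and 1 lower (25.0% and 5.00%, against 7.89% and 2.19% of all genes tested). Beside Ddit4 these were Epas1 (Hif2a), with 149.8, 155, 145 and 162 CPM, against 81.1, 93.5, 79.8 and 75.8 CPM in young naïve libraries (edgeR log2 fold change 0.89 ± 0.0771, adjusted p = 1.50e-06), the mTORC1 subunit Rptor (0.80, adjusted p = 9.21e-05 by edgeR), Tsc2 (0.60, named after its values were seen) and Vegfa, with 65.2, 107, 71.6 and 80.5 CPM, against 55.2, 54.95, 50.99 and 50.7 CPM (edgeR log2 fold change 0.61 ± 0.1301, adjusted p = 0.0034). Without microbead library 2, the highest, the log2 fold change of Vegfa was 0.45 and it lost its call. Adm, itself a target of hypoxia-inducible factors, was the lower one. With all 16 libraries in 1 model 0 hypoxia and mTOR genes were higher and 1 was lower.

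Immediate early genes are switched on within minutes of a stimulus, and 4 of 18 tested were lower with 0 higher (22.2%, against 2.19% of all genes tested, median log2 fold change -0.64). Fos had 69.8, 68.01, 66.1 and 106 CPM in microbead libraries, against 97.5, 220.2, 193 and 173 CPM in young naïve libraries (edgeR log2 fold change -1.14 ± 0.288, adjusted p = 0.0238). Jun had 195, 263, 272 and 349 CPM, against 346, 458, 525 and 481 CPM in young naïve libraries (edgeR log2 fold change -0.74 ± 0.188, adjusted p = 0.0169). In both genes the highest microbead library, library 4, overlapped the lowest young naïve library, library 1. Ier3 was separated, with 56.2, 58, 75.7 and 84.4 CPM, against 94.9, 115, 120.3 and 129 CPM (edgeR log2 fold change -0.74 ± 0.1402, adjusted p = 0.0024), and Nr4a2 (-0.59) was the fourth, named after its values were seen. Egr1 ranged widely, with 87.2, 62.1, 107 and 150.4 CPM, against 93.5, 324, 180.5 and 178 CPM, and was not called (edgeR log2 fold change -0.93 ± 0.445, adjusted p = 0.166). The count of immediate early genes depended on single libraries. Without young naïve library 1 there were 8 lower, without microbead library 2 or 3 or without young naïve library 2, 3 or 4 there was 1, and with all 16 libraries in 1 model there were 0. Saline libraries 1 to 4 had 42.05, 78.4, 97.1 and 141 CPM of Fos and 224, 242, 302 and 404 CPM of Jun, so that saline libraries 1 to 3 were below the young naïve minimum in both genes and library 4 was not.

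Among glucocorticoid-induced genes 2 of 14 were higher and 4 lower (14.3% and 28.6%, against 7.89% and 2.19% of all genes tested). The transcription factor Cebpd had 131, 162, 152 and 150.0 CPM, against 235, 272, 324 and 301 CPM in young naïve libraries (edgeR log2 fold change -0.93 ± 0.0977, adjusted p = 1.05e-05), and all saline libraries, at 188, 182, 221 and 169 CPM, lay below the young naïve range as well. The metallothionein Mt1 had 1266, 1138, 1413 and 1239 CPM, against 2166, 2009, 1899 and 1962 CPM in young naïve libraries (edgeR log2 fold change -0.67 ± 0.0815, adjusted p = 3.14e-05). The others were Mt2 and Nfkbia, both lower and named after their values were seen, and Ddit4 and Per1, both higher. Fkbp5 (0.46) and Tsc22d3 (-0.34), markers of glucocorticoid action, were not called. Of 24 antioxidant and metallothionein genes 4 were lower and 0 higher (16.7%, against 2.19% of all genes tested). They included the glutathione transferases Gstm1, with 245, 196, 221 and 270.4 CPM, against 418, 417, 479.6 and 461 CPM (edgeR log2 fold change -0.93 ± 0.0945, adjusted p = 6.88e-06), Gsta4 (-0.62) and the metallothioneins, while the Nrf2 targets Nqo1 (-0.12) and Hmox1 (-0.01) were not called. Of 22 cell cycle drivers and inhibitors 4 were lower and 0 higher (18.2%, against 2.19%). These included the arrest genes Cdkn1a, with 49.6, 63.1, 39.5 and 42.9 CPM, against 80.1, 78.5, 80.8 and 76.1 CPM (edgeR log2 fold change -0.70 ± 0.122, adjusted p = 8.16e-04), Gadd45a (-0.71) and Gadd45g (-0.70) and the cyclin Ccnd1, the last named after its values were seen. The proliferation marker Mki67 had too few counts to be tested. Of the cytosolic heat shock chaperones 2 of 14 were lower (14.3%, against 2.19%), Hspb1 and Cryab (-0.63, adjusted p = 1.21e-04 by edgeR). In the unfolded protein response genes 1 of 23 was higher and 2 were lower (4.35% and 8.7%, against 7.89% and 2.19%). Dnajb9, a cochaperone of the endoplasmic reticulum, had 142, 145, 146 and 144 CPM, against 63.6, 62.2, 67.7 and 63.6 CPM in young naïve libraries (edgeR log2 fold change 1.16 ± 0.0638, adjusted p = 2.87e-08), a narrow spread in both groups. The secreted stress proteins Manf (-0.63) and Creld2 (-0.62) were lower, and the chaperone Hspa5 (-0.47) and Ddit3 (-0.58) were separated without reaching the minimum. Manf and Creld2 lost their calls without microbead library 1, Cryab without young naïve library 3 and Gsta4 without microbead library 3 or young naïve library 3. With the length trend removed Mt1, Gsta4, Gadd45a, Gadd45g, Hspb1, Cryab, Manf and Creld2 lost their calls. Cebpd, Gstm1, Cdkn1a and Dnajb9 kept theirs there.

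Of 15 genes of lipoprotein and cholesterol transport 1 was higher and 2 lower (6.67% and 13.3%, against 7.89% and 2.19% of all genes tested). Clu, an extracellular chaperone, had 1498, 2602, 2443 and 3669 CPM in microbead libraries, against 5017, 4662, 4638 and 5327 CPM in young naïve libraries (edgeR log2 fold change -0.94 ± 0.245, adjusted p = 0.0225). It kept its call in 14 of 27 alternatives and lost it without microbead library 2 or 3, without any single young naïve library and without a filter on low counts, and its direction reversed with library code as a term. Apod had 2746, 2637, 2704 and 2798 CPM, against 4333, 3781, 4359 and 4358 CPM in young naïve libraries (edgeR log2 fold change -0.63 ± 0.0751, adjusted p = 2.68e-05), with all saline libraries, at 3345, 2624, 3325 and 2622 CPM, below the young naïve range. Apoe, the main carrier, was not called, with an unadjusted p of 0.0168 in edgeR, and its groups did not overlap, at 2859, 4330, 5058 and 7973 CPM, against 8896, 8976, 9948 and 12340 CPM in young naïve libraries (edgeR log2 fold change -0.99 ± 0.312, adjusted p = 0.0504). Microbead library 1 was the lowest and library 4 the highest for Apoe, Clu and Sparc alike. The exporter Abcg1 was higher (0.73, adjusted p = 0.00684 by edgeR). With the length trend removed 0 genes of lipoprotein and cholesterol transport were called by edgeR. In sterol and fatty acid synthesis 1 of 21 was higher, the reductase Dhcr7 (0.67, adjusted p = 0.00197 by edgeR), and 1 lower, the decarboxylase Mvd (-0.61, adjusted p = 0.00394 by edgeR). Of 16 genes of glutamate, water and potassium handling 2 were higher, Atp1b2 and the GABA transporter Slc6a11 (0.62, adjusted p = 3.41e-04 by edgeR). Single libraries left out ended the calls of Dhcr7 (young naïve library 1), Mvd (microbead library 1 or young naïve library 3) and Slc6a11 (young naïve library 1 or 3).

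RNA of retinal ganglion cells, which reaches the lamina in their axons, was lower in part. Of 14 retinal ganglion cell and axon RNAs tested, 3 were lower and 0 higher (21.4%, against 2.19% of all genes tested, median log2 fold change -0.46). Nefh, the neurofilament heavy chain, had 22.3, 20.4, 26.2 and 39.3 CPM in microbead libraries, against 42.9, 60.1, 49.3 and 61.1 CPM in young naïve libraries (edgeR log2 fold change -0.97 ± 0.213, adjusted p = 0.00811). Nefm had 3.76, 2.92, 4.87 and 4.95 CPM, against 7.51, 13.4, 7.83 and 8.21 CPM in young naïve libraries (edgeR log2 fold change -1.15 ± 0.232, adjusted p = 0.00169), and the growth-cone protein Stmn2 had 10.6, 8.97, 11.3 and 9.06 CPM, against 15.5, 23.6, 20.6 and 12.4 CPM (edgeR log2 fold change -0.85 ± 0.185, adjusted p = 0.00321). All 3 were apart without overlap, while Nefl (-0.48, adjusted p = 0.295 by edgeR) and Sncg (-0.65, adjusted p = 0.079 by edgeR) overlapped. Saline libraries 1 to 4 had 25.4, 37.7, 31.8 and 26.5 CPM of Nefh, all below the young naïve range, and 5.93, 5.48, 4.88 and 2.68 CPM of Nefm. The count of retinal ganglion cell and axon RNAs called lower was 3 again with the length trend removed and with all 16 libraries in 1 model, 5 without microbead library 3 and 0 with library code as a term in 14 libraries. Without young naïve library 2 their median log2 fold change was -0.27. The median log2 fold change of the 12 photoreceptor and other retinal cell RNAs tested was -1.54 with 0 called by edgeR or DESeq2 (0 at an unadjusted p under 0.05). Without young naïve library 2 that median of photoreceptor and other retinal cell RNAs was 0.21. The part of their summed level in the lower neurofilament levels was not tested.

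Markers of the other cells of the lamina had few calls in each list. Over all genes tested 7.89% were called higher and 2.19% lower. Called higher were 5.88% of astrocyte, 5.56% of microglia, 7.14% of endothelial and 7.14% of oligodendrocyte markers. The shares were 16.7% for pericyte and smooth muscle and 20% for meningeal fibroblast markers, with 0 lower in both. Called lower were 5.88% of astrocyte, 5.56% of microglia, 9.09% of border macrophage and 7.14% of endothelial markers, 1 gene in each list. Of 17 astrocyte markers 1 was higher, the sodium pump subunit Atp1b2, with 1380, 1366, 1517 and 1527 CPM, against 815, 793, 761 and 716 CPM (edgeR log2 fold change 0.91 ± 0.0745, adjusted p = 1.02e-06), and 1 lower, the aldolase Aldoc, with 701, 795, 578 and 712 CPM, against 1141, 1216, 1320 and 1211 CPM (edgeR log2 fold change -0.81 ± 0.0927, adjusted p = 1.86e-05). Aqp4 (0.29) and Slc1a3 (0.24) were not called, and S100b was separated below the minimum (-0.37, adjusted p = 0.0027 by edgeR). Of 18 microglia markers Sall1 was higher (0.67, adjusted p = 2.51e-04 by edgeR) and Aif1 lower (-0.59, adjusted p = 0.00152 by edgeR). Cx3cr1 (-0.04, adjusted p = 0.746 by edgeR) and P2ry12 (-0.34, adjusted p = 0.0307 by edgeR) were not called. The groups did not overlap in 6 of the 18 with microbead libraries lower and in 1 with them higher. Over all genes tested these shares were 14.9% and 18.0%. Aif1 lost its call without microbead library 4 or young naïve library 3. The lysosomal Cd68 was the lower one of 11 border macrophage and infiltrating leukocyte markers (-0.67, adjusted p = 6.84e-04 by edgeR), a call that was lost without young naïve library 3. Of 14 endothelial markers Cdh5 was higher (1.03, adjusted p = 2.00e-05 by edgeR) and Ly6c1 lower (-0.71, adjusted p = 2.01e-04 by edgeR). Pecam1 was not called (0.18), and Cldn5 was lower without overlap but under the 1.5-fold minimum (-0.56, adjusted p = 9.38e-05 by edgeR). The groups did not overlap in 4 endothelial markers with microbead libraries lower and in 3 with them higher. Of 12 pericyte and smooth muscle markers Notch3, with 36.8, 26.6, 26.04 and 22.8 CPM, against 9.06, 13.1, 9.73 and 8.44 CPM (edgeR log2 fold change 1.47 ± 0.1702, adjusted p = 2.84e-05), and Anpep (1.39) were higher and Acta2 overlapped (-0.46). Of 14 oligodendrocyte and myelin markers the tight junction gene Cldn11 was higher (1.11, adjusted p = 4.01e-04 by edgeR), and Mbp (-0.26) and Mog (-0.06) were not called. Of 15 meningeal fibroblast markers Col1a1, Col3a1 and Foxc1 were higher, and Ptgds (-0.19) and Dcn (-0.26) were not. With the length trend removed Aif1, Sall1, Cd68, Ly6c1, Col3a1 and Foxc1 lost their calls. Atp1b2, Aldoc, Cdh5, Notch3, Anpep, Cldn11 and Col1a1 kept theirs there. The summed level of astrocyte markers was 19040 to 24820 CPM in microbead and 18950 to 21850 CPM in young naïve libraries, that of microglia markers 2231 to 2510 CPM in microbead and 2652 to 3186 CPM in young naïve libraries, and that of meningeal fibroblast markers 23760 to 34900 CPM in microbead and 26840 to 33140 CPM in young naïve libraries. Of 7 oligodendrocyte precursor markers 0 were called by edgeR (1 at an unadjusted p under 0.05) and 1 by DESeq2, and of 10 pigment cell and choroid RNAs 0 were called by edgeR (2 at an unadjusted p under 0.05) and 1 by DESeq2. Skeletal muscle and blood RNAs summed to at most 5.84 CPM in microbead and 31.7 CPM in young naïve libraries.

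**Figure D4:**
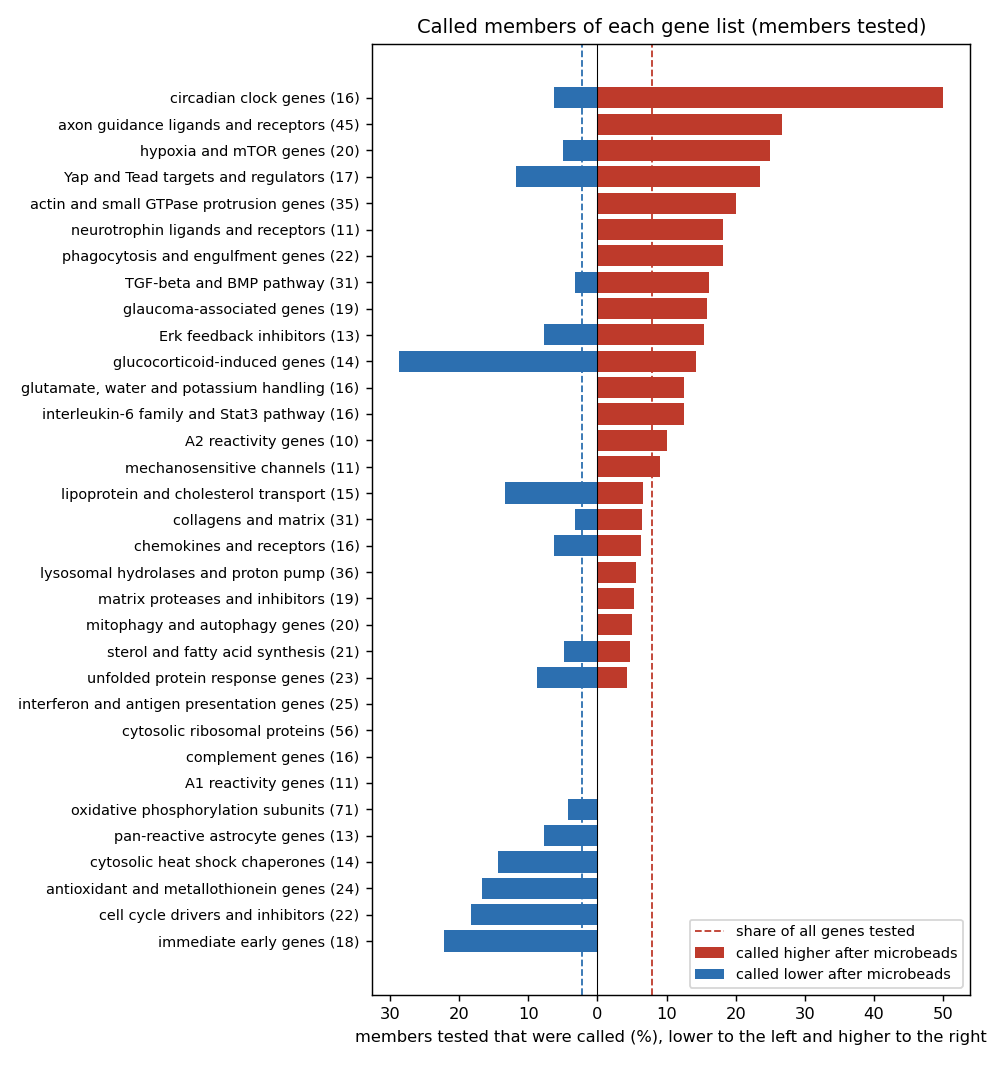
Share of each gene list called higher (bars to the right) and lower (bars to the left) after microbead injection, in percent of the members tested, whose number stands in brackets, for pathway lists with at least 10 members tested. Dashed lines mark the shares of all genes tested, 7.89% higher and 2.19% lower. The circadian clock genes reach farthest to the right at 50% and the glucocorticoid-induced genes farthest to the left at 28.6%.

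The share of called genes differed with gene length. Genes called higher had a median exon length of 4083 bases and genes called lower of 1456 bases, against 2878 bases for all genes tested. In the shortest decile of the genes (39 to 1179 bases) 1.35% were called higher and 7.90% lower, and the median log2 fold change was -0.32. In the ninth decile (4778 to 6295 bases) 15.7% were higher and 0.214% lower, and the median was 0.24. The 4 microbead libraries and saline library 4 followed one course across the deciles, and young naïve and saline libraries 1 to 3 followed others. Lists of short genes follow, and the part of gene length in their levels was not tested. Of 71 oxidative phosphorylation subunits, with a median of 681 bases, 3 were called lower and 0 higher (4.23%, against 2.19% of all genes tested), and in 56 the groups did not overlap with microbead libraries lower, against 14.9% of all genes tested. Their median log2 fold change was -0.32. Ndufv3 of complex I had 83.7, 88.3, 79.6 and 92.4 CPM, against 131, 140.0, 142 and 130.1 CPM in young naïve libraries (edgeR log2 fold change -0.66 ± 0.0706, adjusted p = 1.08e-05), and Ndufc2 had 194, 188, 193 and 170.1 CPM, against 273, 275, 291 and 252 CPM (edgeR log2 fold change -0.55 ± 0.0722, adjusted p = 6.06e-05). With the length trend removed the median of oxidative phosphorylation subunits was -0.018 and 0 were called by edgeR, as were 0 with all 16 libraries in 1 model. For cytosolic ribosomal proteins, with a median of 813 bases, 0 of 56 were called by edgeR or DESeq2 (19 at an unadjusted p under 0.05 in edgeR) and 17 did not overlap with microbead libraries lower, and their median of -0.22 turned to 0.11 with the length trend removed. Rpl4 (-0.27, adjusted p = 0.0053 by edgeR) was one of the 17 and Rps3 (-0.00, adjusted p = 0.983 by edgeR) was not.

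**Figure D5:**
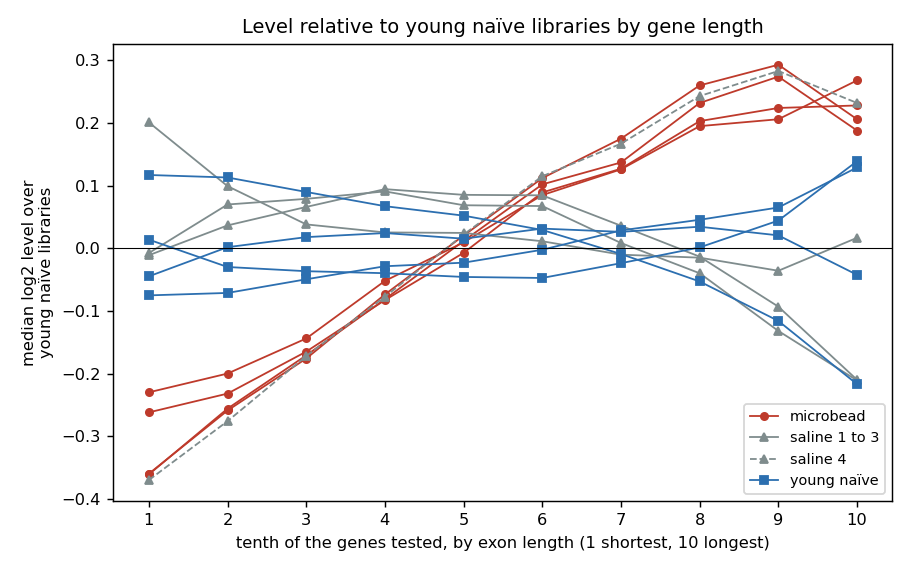
Median log2 level relative to the young naïve libraries (vertical) in each decile of the genes tested, ordered by exon length (horizontal, 1 shortest and 10 longest), with 1 line for each microbead (circles), saline (triangles, library 4 dashed) and young naïve library (squares). The microbead lines climb from -0.23 to -0.36 in the shortest decile to 0.21 to 0.29 in the ninth, and the dashed saline line climbs with them.

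Removing each library's trend with gene length left 962 called genes, 727 higher and 235 lower, of which 786 were among the 1416. Of the 12 largest increases and 12 largest decreases all but Pcp4 were still called. Ngfr, Vat1, Tgfb1, Smad7, Actr2, Cxcr4, Dnajb9 and Atp6v0d1 remained called, and Axl, Hlf, Ulk1, Hspb1, Mt1 and Ndufv3 did not. With microbead libraries 1 and 2 alone 1339 genes were called and with microbead libraries 3 and 4 alone 1465, with 1083 and 1129 of the 1416 among them. Among the saline libraries, which also have code 4, libraries 1 to 3 had 15.03, 17.3 and 17.5 CPM of Tgfb1 and 96.2, 58.8 and 71.1 CPM of Actr2 and library 4 had 38.3 and 183 CPM. Of the 1108 genes called higher, 379, 404, 422 and 1074 lay above every young naïve library in saline libraries 1 to 4. Of the 308 called lower, 114, 125, 158 and 277 lay below every one. These genes were called against the same young naïve libraries, so the counts are a description only. With library code as a term, 323 genes were called in a model of 14 libraries, without saline library 4 and aged library 2, and 0 in a model of all 16 (558 at an unadjusted p under 0.05 in edgeR). In both models the difference between codes 4 and 3 is set by the aged libraries, of which only library 4 has code 4, and that between codes 5 and 4 by the microbead libraries.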

How the data were processed

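RNA was measured in pooled optic nerve heads by SMARTer Ultra Low Input sequencing without strand. Per the labels and the study's methods, the authors aligned reads with STAR 2.3.0 to mm10 and counted reads per gene with featureCounts (version not given in the sources used here), and the deposited table holds these raw counts. Groups came from the labels. Counts of the 4 microbead and 4 young naïve libraries (7321554 to 10726122 per library) were filtered with filterByExpr, scaled with TMM factors and fitted in edgeR 4.0.16 (limma 3.58.1, R 4.3.3) with robust quasi-likelihood dispersion and Benjamini-Hochberg adjustment. A call needed a 1.5-fold difference, an unadjusted p under 0.01 and an adjusted one under 0.05. CPM of all 16 libraries use the scale of this fit. Labels name no separate cultures beyond the pools, so p-values measure the spread between pools.

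Named genes were the 12 called genes with the largest and the 12 with the smallest log2 fold change, among those with a mean count of at least 50 and groups that did not overlap, and in each list its chosen anchor genes and up to 3 called members with the smallest p. The members and lists were chosen with earlier results of these data known. Other genes are named as such. Some genes of the cell type marker lists are not reported here. Alternatives covered scaling, filters, DESeq2 1.42.0, libraries left out, added groups, library code, a loess trend with gene length (span 0.5) and the replicate number. The test was tried on simulated data. The authors' own comparison tables, which hold group averages, ratios and p-values for selected genes, were not used. Genes that overlap or share sequence cannot be told apart without strand.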

Additional observations from a re-analysis of the deposited data

Results flagged for a closer look

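In 25 of 392 checks of a gene in a group of 4 libraries, the highest or lowest library lay apart from the other 3 by more than Dixon's limit, and chance gives about 1 in 20. Microbead library 2 accounted for 8 of them, microbead library 1 and young naïve library 2 for 6 each. No explanation was tested.

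Microbead library 1 was high for Ch25h (14.3 CPM, others 10.6 to 10.8), the fibroblast gene Dcn (2816 CPM, others 1842 to 1958), the pigment gene Pmel (799.9 CPM, others 436 to 496), Alas2 of heme synthesis (2.85 CPM, others 0.795 to 1.15) and Myoc (58.8 CPM, others 10.5 to 18.3) and low for Megf10 (67.1 CPM, others 78.0 to 79.3). Microbead library 2 was high for the pigment epithelium gene Rpe65 (319.8 CPM, others 62.9 to 91.6), Lcn2 (16.4 CPM, others 5.76 to 7.13), Axl (494.8 CPM, others 422.0 to 423.5), C3 (92.4 CPM, others 54.2 to 58.1), Rptor (32.9 CPM, others 27.7 to 28.3), Nqo1 (41.9 CPM, others 24.2 to 25.5) and Dusp6 (77.7 CPM, others 62.3 to 64.0), and low for Tead2 (16.2 CPM, others 19.6 to 20.2). Microbead library 3 was low for Loxl1 (64.8 CPM, others 90.7 to 92.5). Microbead library 4 was high for Fos (105.5 CPM, others 66.1 to 69.8).

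Young naïve library 1 was high for Darc (46.97 CPM, others 17.0 to 21.5). Young naïve library 2 was high for Nefm (13.4 CPM, others 7.51 to 8.21), the muscle actin Acta1 (11.97 CPM, others 0.119 to 0.332), Srgn (230.0 CPM, others 215.6 to 216.3), Lif (2.91 CPM, others 2.10 to 2.14) and Cxcl1 (5.59 CPM, others 2.12 to 2.50), and low for Apod (3781 CPM, others 4333 to 4359). Young naïve library 3 was high for Tgfb1 (15.4 CPM, others 11.9 to 12.5), and young naïve library 4 was low for Col1a1 (204.8 CPM, others 246.5 to 250.6).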

How the results depend on the processing

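The 1416 called genes became 1254 to 1504 with 1 library left out, 1399 with size factors of DESeq2, 1363 with upper quartile scaling, 1558 with library totals, which moved the median of all genes to 0.078, 1453 without a filter, 1205 with a mean count of at least 50 and 1399 with DESeq2, which shared 1340. It was 1382 without the 2 libraries with most retinal RNA (microbead library 4 and young naïve library 2), an alternative chosen after seeing the data. Without a minimum fold change 4136 genes passed. With all 16 libraries in 1 model 725 passed, 721 of them shared, and with library code as a term 323 passed in 14 libraries (265 shared) and 0 in 16 libraries, where 558 had an unadjusted p under 0.05 in edgeR. The replicate numbers did not pair the samples (same-number correlations of -0.16, -0.159, 0.148 and -0.185). A replicate block gave 1381 calls, of which 1325 were shared, and the block with the length trend removed gave 939. The model with library code in 16 libraries called 0 genes, so 0 of 105 named called genes could keep their call under every alternative. Some, such as Vat1, Epn1, Tgfb1, Actr2 and Dnajb9, lost it only in that model. Of the 105, 41 lost their call in the 16-library model without the code, 69 with library code in 14 libraries, 35 with the length trend removed and 4 under the block. With 1 single library left out 25 lost their call at least once (Nfil3, Pcp4, D4Wsu53e, Aif1, Cd68, Foxc1, Alas2, Tyro3, Sorcs2, Fos, Jun, Vegfa, Cryab, Manf, Creld2, Cyr61, Adra1b, Slc6a11, Clu, Dhcr7, Mvd, Ndufa5, Atp6v0a2, Gsta4 and Dusp2). Directions reversed only with library code as a term. In 16 libraries the log2 fold changes then were 0.27 for Aif1, 0.14 for Hspb1, 0.25 for Mt1, -0.14 for Per1, 0.0027 for Cryab, -0.40 for Slc6a11, 0.13 for Clu, 0.51 for Apod, 0.23 for Ndufv3, 0.16 for Ndufa5, 0.10 for Atp5k and 0.053 for Cdkn1a, and in 14 libraries 0.31 for Clu and 0.14 for Apod. The cause of these changes was not tested. A model with RNA quality as a term was not run. Genes with few counts, such as Adra2b, Bdnf and Cxcl1, are limited by depth.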

Other observations

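Sele and Selp were lower at few counts. They fall outside the rule for named genes because of their low counts and were chosen after their values were seen. Of the 14 endothelial markers tested 1 was higher and 1 lower, and their median log2 fold change was -0.0057. Sele, the E-selectin that slows leukocytes on inflamed venules, had 0.519, 1.46, 0.795 and 1.40 CPM in microbead libraries 1 to 4 and 4.09, 4.25, 5.48 and 2.85 CPM in young naïve libraries 1 to 4 (edgeR log2 fold change -1.96 ± 0.329, adjusted p = 4.52e-04). Selp, the P-selectin of the same step, had 2.08, 1.46, 2.19 and 0.654 CPM in microbead libraries 1 to 4 and 7.85, 2.91, 4.92 and 3.57 CPM in young naïve libraries 1 to 4 (edgeR log2 fold change -1.61 ± 0.386, adjusted p = 0.00623). In Sele the groups were apart, and in Selp young naïve library 2 lay closest to the microbead libraries. Saline libraries 1 to 4 had 1.98, 1.69, 3.25 and 1.28 CPM of Sele and 2.50, 1.99, 4.63 and 1.28 CPM of Selp, and library 3 alone was not below every young naïve library. The stress cytokine Gdf15 was also lower, with 2.21, 2.09, 1.79 and 1.21 CPM in microbead libraries 1 to 4 and 3.87, 3.36, 6.82 and 6.07 CPM in young naïve libraries 1 to 4 (edgeR log2 fold change -1.47 ± 0.292, adjusted p = 0.0016), and its saline values of 2.24, 2.19, 2.88 and 2.92 CPM were all under the young naïve range.

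At the high end, and chosen in the same way, Mrgprf, an orphan receptor, had 8.56, 7.51, 9.84 and 10.9 CPM in microbead libraries 1 to 4 and 1.10, 1.23, 1.01 and 0.951 CPM in young naïve libraries 1 to 4 (edgeR log2 fold change 3.09 ± 0.219, adjusted p = 2.57e-07). Eef1a2, the elongation factor of neurons and muscle, had 4.80, 7.41, 5.76 and 7.94 CPM in microbead libraries 1 to 4 and 0.774, 1.57, 1.01 and 0.833 CPM in young naïve libraries 1 to 4 (edgeR log2 fold change 2.62 ± 0.279, adjusted p = 1.05e-05). In saline libraries 1 to 3 Mrgprf lay at 0.498 to 0.791 CPM and in saline library 4 at 6.42 CPM, and Eef1a2 lay at 0.250 to 1.20 CPM in libraries 1 to 3 and at 4.67 CPM in library 4.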
